A study of Mus musculus with 2 samples.

Results

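The VEGF ligand and receptor genes were followed in single-cell RNA-seq of leukocytes sorted from mouse mesothelioma. The genes are the ligands Vegfa, Vegfb, Vegfc and Pgf, the receptor tyrosine kinases Flt1 and Kdr, and the co-receptors Nrp1 and Nrp2. They were taken by symbol, and all 8 were among the 31053 features. Mice bearing tumours of AB1-HA, a mouse mesothelioma cell line, received an anti-VEGF antibody or a control antibody. The tumours were dissociated, live CD45-positive cells (CD45 is the leukocyte antigen encoded by Ptprc) were sorted, and transcript 3′ ends were sequenced from droplets. Each group was 1 library, and the number of mice, the antibody clone, its dose and the time of sampling are not given in the sources used here. With 1 library per group there was no replicate and no test. Every difference describes this pair of libraries, and every interval is an exact 95% interval that covers counting error only.

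VEGF-A is the main growth, survival and permeability factor of blood vessel endothelium, and its gene is a textbook target of the hypoxia-inducible factors. It signals through Kdr, while Flt1 binds it tightly with weak kinase activity and also has a soluble form that acts as a decoy. PlGF and VEGF-B bind Flt1 and not Kdr, and VEGF-C acts mainly on lymphatic endothelium through Flt4. Neuropilins lack a kinase domain, and they bind class 3 semaphorins as well as VEGF family ligands. In tumours, macrophages and monocytes are known sources of VEGF-A, and monocytes carry Flt1.

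Molecules were counted by unique molecular identifiers (UMIs), 213948867 over 8825 barcodes in the anti-VEGF and 233687412 over 11687 barcodes in the control library. A filter on detected genes, UMIs and mitochondrial UMIs kept 8159 and 10805 cells, with medians of 22503 and 18265 UMIs. In all, 35 barcode sequences occurred in both libraries. Cells were sorted into classes by counts of marker genes. Macrophage-like cells numbered 3814 (46.7%) in the anti-VEGF and 4918 (45.5%) in the control library. Monocyte-like cells numbered 345 (4.23%) and 194 (1.80%), and Acp5-high cells, which express the osteoclast-associated genes Acp5 and Ctsk, numbered 825 (10.1%) and 1337 (12.4%). Collagen-expressing cells without a Ptprc UMI numbered 583 (7.15%) and 384 (3.55%). They lack a UMI of the sorted antigen, so they need not be leukocytes, and their tumour or mesothelial markers summed to 256 CPM and 223 CPM (the UMIs of a gene over all UMIs of its class, times 1000000). Neutrophil-like cells numbered 209 and 34. T cell-like cells numbered 47 and 58, mature dendritic cell-like cells 20 and 29, and NK cell-like cells 8 and 30. Cells that met no gate made up 22.0% and 29.2%, with medians of 3268 and 1434 UMIs, and cells with markers of several lineages (5.37% and 5.38%) were set aside as mixed. The 9 macrophage markers summed to 12596 CPM in anti-VEGF and 17380.2 CPM in control macrophage-like cells, so the class itself differed between the libraries, and the part of this in the ratios below was not tested.

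Endothelial cells, the textbook site of Flt1 and Kdr, were nearly absent. No anti-VEGF cell and 2 control cells met the endothelial gate, which used 10 markers other than the VEGF receptors, and no cell of either library met the mural gate. The 2 control cells held 30 Flt1, 24 Kdr, 27 Nrp1, 22 Nrp2 and 47 Pgf UMIs, and no UMI of Vegfa, Vegfb or Vegfc. All 47 Pgf UMIs and 21 of the 22 Nrp2 UMIs lay in 1 of them. A further 2 anti-VEGF and 3 control cells carried at least 3 endothelial markers along with those of another lineage and were counted as mixed. The 2 anti-VEGF cells held 29 and 12 Flt1 UMIs and 8 Kdr UMIs each, and the 3 control cells held 66, 20 and 15 Flt1 UMIs and 14, 32 and 9 Kdr UMIs. Few endothelial cells could thus be described, and the receptor levels by class that follow are those of other cells. Totals over a library or over mixed cells include the cells named here.

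The sequences just upstream of RefSeq starts are shown because Vegfa, Flt1, Vegfc and Nrp2 had the clearest trends with a hypoxia score, given further on. The 250 bases before the RefSeq start of each gene come from GRCm38.p6, as RefSeq gives them, and all 8 genes matched. Capitals mark the core letters of the hypoxia response element, searched as ACGTG and GCGTG on both strands. The Vegfa window is chr17:46032378-46032627 on the minus strand, and that of Flt1 is chr5:147726012-147726261 on the minus strand. The Vegfc window is chr8:54077282-54077531 on the plus strand, and that of Nrp2 is chr1:62703067-62703316 on the plus strand. Each is written 5′ to 3′ on the strand of its gene.
Vegfa: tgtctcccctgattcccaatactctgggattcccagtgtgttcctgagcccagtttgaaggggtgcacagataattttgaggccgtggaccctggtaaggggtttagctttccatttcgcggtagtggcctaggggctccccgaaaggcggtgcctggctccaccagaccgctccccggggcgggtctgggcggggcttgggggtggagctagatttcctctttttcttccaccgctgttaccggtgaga
Flt1: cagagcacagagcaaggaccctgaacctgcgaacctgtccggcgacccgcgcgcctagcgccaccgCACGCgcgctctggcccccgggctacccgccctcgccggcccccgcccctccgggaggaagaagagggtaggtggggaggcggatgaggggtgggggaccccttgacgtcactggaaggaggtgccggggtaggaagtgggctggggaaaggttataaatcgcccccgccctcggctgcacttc
Vegfc: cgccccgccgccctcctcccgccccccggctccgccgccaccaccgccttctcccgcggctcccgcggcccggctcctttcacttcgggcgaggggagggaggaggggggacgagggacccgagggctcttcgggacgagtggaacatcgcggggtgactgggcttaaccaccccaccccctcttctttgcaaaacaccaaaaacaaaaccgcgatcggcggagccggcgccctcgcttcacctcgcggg
Nrp2: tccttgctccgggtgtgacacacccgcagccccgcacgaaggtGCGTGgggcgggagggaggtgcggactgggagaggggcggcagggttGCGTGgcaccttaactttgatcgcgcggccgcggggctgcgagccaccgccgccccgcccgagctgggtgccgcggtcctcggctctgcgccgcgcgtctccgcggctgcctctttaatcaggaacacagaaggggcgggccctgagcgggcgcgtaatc
The motif occurred in 38.6% of 32851 such windows of the genome, and in 7 of 10 windows of the VEGF genes, since Vegfa and Pgf have 2 windows each. Vegfa had no match in the window shown and 2 in its second window, which lies inside the gene, and Vegfc had none. By the gene bounds of GENCODE, both Pgf windows and the Nrp1 window also lie inside the gene. The Nrp2 and Kdr windows overlap the start of theirs. Flt1, Nrp1 and the first window of Pgf had 1 match each, and Vegfb, Kdr and Nrp2 had 2 each. A match only shows that these letters are present, and regions farther from the start were not searched.

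Vegfa (chr17:46016993-46032369, minus strand, in the GENCODE annotation of GRCm38, as for the genes below) was the ligand gene with the most UMIs, 32571 in the anti-VEGF and 25869 in the control library. CPM of these 3′ tags count molecules and do not scale with gene length. Monocyte-like cells had the highest level, 381 CPM (368 to 395) in the anti-VEGF and 385 CPM (368 to 402) in the control library. Macrophage-like cells had 164 CPM (162 to 167) and 127 CPM (125 to 129). Acp5-high cells had 125 CPM (120.4 to 129) and 75.3 CPM (72.6 to 78.0), and collagen-expressing cells without Ptprc had 127 CPM (123 to 132) and 95.4 CPM (90.8 to 100.3). In the anti-VEGF library, neutrophil-like cells (175 CPM, 146 to 209.5) could not be ordered against macrophage-like cells, nor could Acp5-high cells be ordered against collagen-expressing cells. T cell-like cells had 59.5 CPM and 27.0 CPM, from 33 and 15 UMIs, and mature dendritic cell-like cells had 25.8 CPM and 9.09 CPM, from 6 and 4 UMIs.

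The gene that encodes the target of the antibody was thus at or above its control level in the 4 large classes. The CPM ratio of anti-VEGF over control was 1.29 (1.26 to 1.32) in macrophage-like cells, 1.65 (1.57 to 1.74) in Acp5-high cells and 1.33 (1.25 to 1.41) in collagen-expressing cells without Ptprc. In monocyte-like cells the ratio was 0.992 (0.938 to 1.05). Neutrophil-like cells had a ratio of 2.33 (1.19 to 5.23), resting on 122 and 9 UMIs. After each cell was thinned to 5000 UMIs, 42.7% (41.1 to 44.3) of anti-VEGF and 33.2% (31.8 to 34.6) of control macrophage-like cells held a Vegfa UMI, with 116 and 629 shallower cells left out. Before thinning the shares were 72.1% and 51.8%. For monocyte-like cells the thinned shares were 76.9% (72.0 to 81.3) and 69.6% (62.6 to 76.0).

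**Figure D1:**
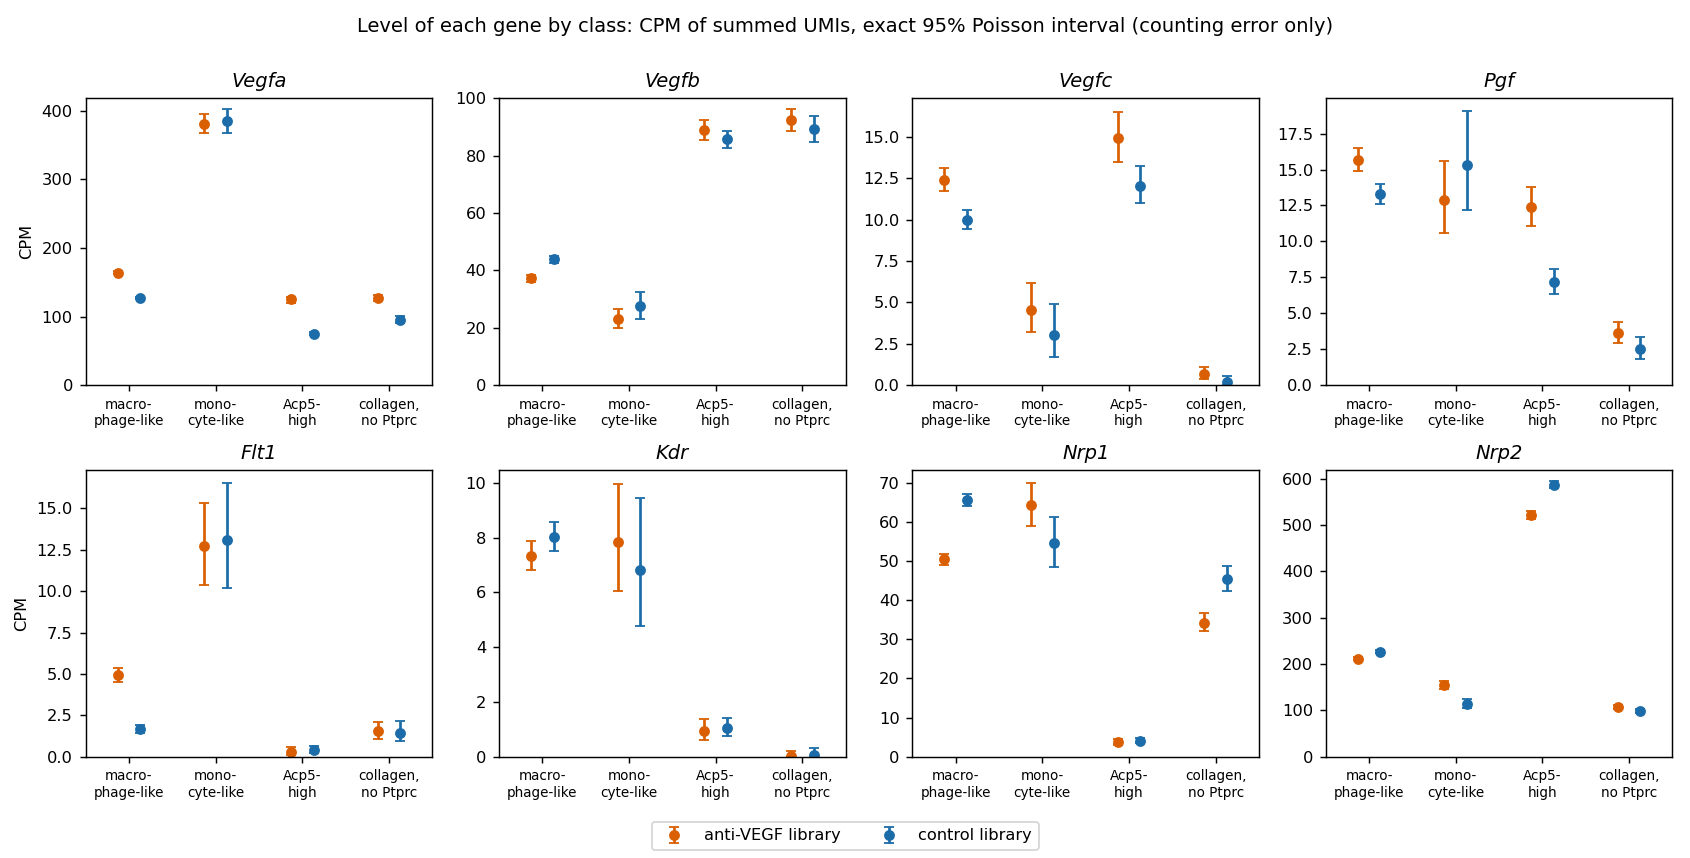
Level of each VEGF ligand and receptor gene in CPM (linear axis from 0) in 4 cell classes, with the anti-VEGF library (orange) left of the control library (blue). Points are class sums and bars are exact 95% Poisson intervals, which cover counting error only. Vegfa and Flt1 are highest in monocyte-like cells, Nrp2 in Acp5-high cells, and Kdr is close to 0 in collagen-expressing cells.

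Vegfb (chr19:6982473-6987651, minus strand), whose product binds Flt1, was highest in collagen-expressing cells without Ptprc, at 92.4 CPM (88.7 to 96.2) in the anti-VEGF and 89.2 CPM (84.7 to 93.8) in the control library. Acp5-high cells had 88.9 CPM and 85.7 CPM, with intervals that overlapped those of the collagen-expressing cells. Macrophage-like cells had less than either, 37.2 CPM (36.0 to 38.4) and 43.8 CPM (42.6 to 45.0), a ratio of 0.849 (0.814 to 0.886). Monocyte-like cells had 22.9 CPM and 27.5 CPM. Vegfb therefore had nearly the reverse class order of Vegfa among the 4 large classes. Its ratio was 1.04 (0.983 to 1.09) in Acp5-high and 1.04 (0.970 to 1.11) in collagen-expressing cells.

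Vegfc (chr8:54077606-54187096, plus strand), the lymphatic growth factor gene, was highest among the 4 large classes in Acp5-high cells, with 14.9 CPM (13.5 to 16.5) in the anti-VEGF and 12.0 CPM (11.0 to 13.2) in the control library. Macrophage-like cells followed with 12.4 CPM (11.7 to 13.1) and 9.97 CPM (9.40 to 10.6). Cells that met no gate had 22.4 CPM and 27.9 CPM, and the 30 NK cell-like cells of the control library had 24.8 CPM (12.4 to 44.4) from 11 UMIs. The ratio was 1.24 (1.08 to 1.42) in Acp5-high and 1.25 (1.15 to 1.35) in macrophage-like cells. It was 0.804 (0.707 to 0.913) in cells that met no gate and 1.03 (0.977 to 1.10) over all kept cells. Collagen-expressing cells without Ptprc held only 17 and 3 UMIs, or 0.673 CPM and 0.182 CPM, and 1 anti-VEGF cell held 10 of the 17. Within macrophage-like cells, those with both Lpl and Dusp9 (57 and 123 cells) had 43.6 CPM (119 UMIs) in the anti-VEGF and 26.9 CPM (145 UMIs) in the control library. Cells with the proliferation genes Mki67 and Top2a had 20.1 CPM and 12.7 CPM. Cells with Selenop and Stab1 had 5.12 CPM and 4.56 CPM. These ranges overlap and are not cell types. The Lpl and Dusp9 range was chosen with earlier results of these data known, in which both genes were grouped with Vegfc. Its high Vegfc is therefore not an independent finding.

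Pgf (chr12:85166635-85177790, minus strand), which encodes placental growth factor, was held by few cells. In macrophage-like cells it had 15.7 CPM (14.9 to 16.5) in the anti-VEGF and 13.3 CPM in the control library, a ratio of 1.18 (1.10 to 1.26). Cells with at least 5 Pgf UMIs made up 2.46% (94 cells) and 1.63% (80 cells) of the class and held 66.5% and 57.0% of its Pgf UMIs. Monocyte-like cells had 12.9 CPM (10.6 to 15.6) and 15.3 CPM (12.2 to 19.1). The 8 anti-VEGF NK cell-like cells held no Pgf UMI, which allows up to 42.0 CPM. The 30 control ones held 37, or 83.5 CPM (58.8 to 115), but all 37 lay in 1 cell. That value therefore describes 1 cell and not the class. Acp5-high cells had 12.4 CPM (11.1 to 13.8) and 7.16 CPM (6.34 to 8.05), a ratio of 1.73 (1.47 to 2.04). One anti-VEGF cell held 18.3% of the Pgf UMIs of that class, and without the highest cell of each library the ratio was 1.53 (1.29 to 1.82). With 1 marker more in every gate the Acp5-high ratio was 0.811 (0.632 to 1.04), so its direction is not settled. T cell-like and neutrophil-like cells held no Pgf UMI in either library, which allows up to 5.41 CPM and 5.40 CPM in T cell-like cells and up to 4.32 CPM and 25.1 CPM in neutrophil-like cells.

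**Figure D2:**
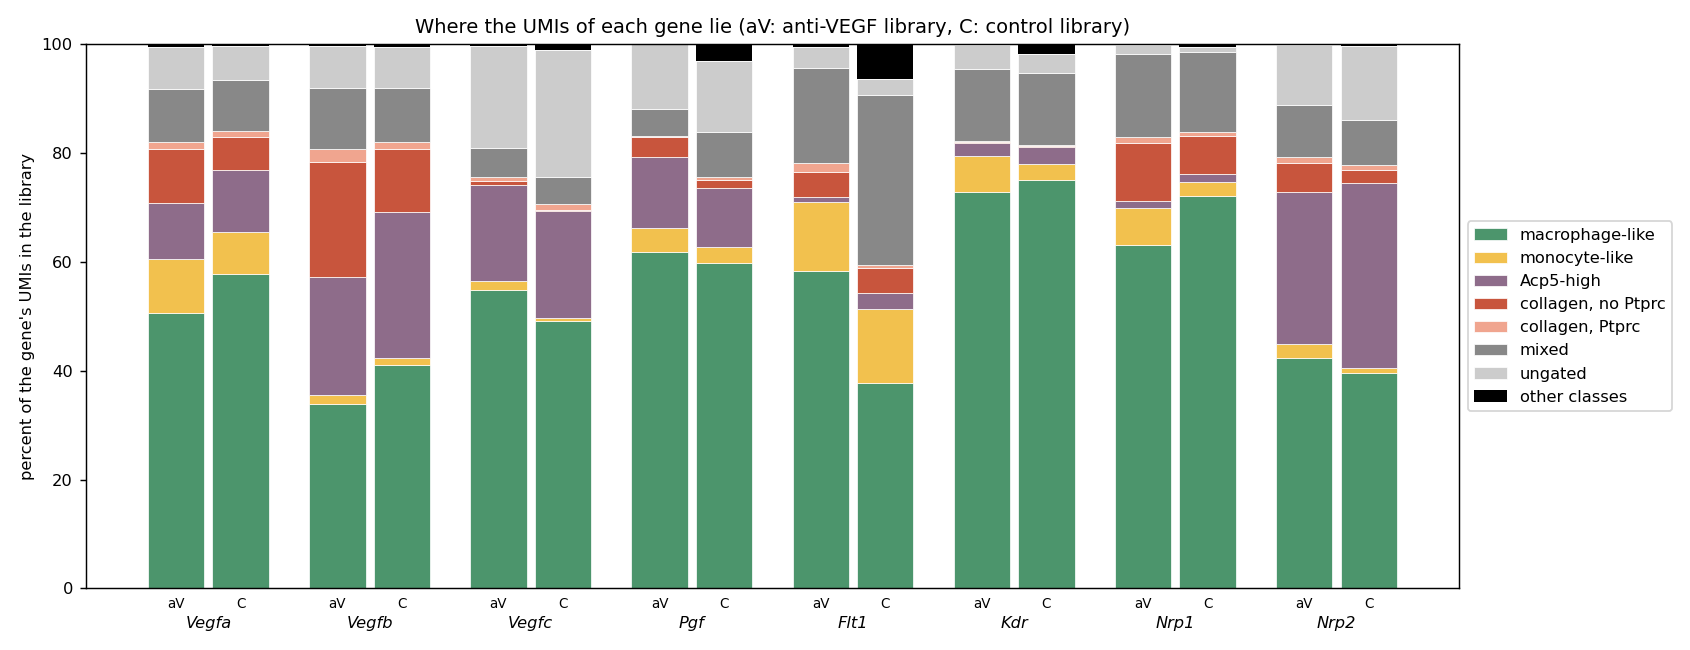
Percent of the UMIs of each gene that lay in each cell class, for the anti-VEGF library (aV, left bar) and the control library (C, right bar). Macrophage-like cells held 50.6% and 57.7% of Vegfa UMIs, and Acp5-high cells held 27.9% and 34.0% of Nrp2 UMIs.

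Macrophage-like cells held the largest share of each of the 4 ligand genes in both libraries, and the shares of the other classes differed between the genes. This class was also the largest by UMIs of all genes. It held 100526021 of the 206451897 UMIs of kept anti-VEGF cells and 117604604 of the 223974693 of kept control cells. A large share of a gene thus partly reflects the size of the class and is not a high level. Macrophage-like cells held 50.6% of Vegfa UMIs in the anti-VEGF and 57.7% in the control library, and monocyte-like cells held 9.87% and 7.85%. Of the Vegfb UMIs, 33.8% and 41.1% were in macrophage-like cells, 21.7% and 26.8% in Acp5-high cells, and 21.1% and 11.7% in collagen-expressing cells without Ptprc. Of the Vegfc UMIs, 54.8% and 49.0% were in macrophage-like cells and 17.7% and 19.7% in Acp5-high cells. Of the Pgf UMIs, 61.8% and 59.7% were in macrophage-like cells and 13.1% and 10.7% in Acp5-high cells. A further VEGF ligand gene, Vegfd, had 747 and 449 UMIs, of which 72.0% and 70.2% lay in collagen-expressing cells without Ptprc. Its level there was 21.3 CPM (19.5 to 23.2) and 19.2 CPM (17.1 to 21.4), while macrophage-like cells held 10 and 11 UMIs. Flt4, the receptor of Vegfc and Vegfd, had 13 and 22 UMIs in all kept cells.

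Flt1 (chr5:147561604-147726011, minus strand) was the receptor gene with the widest difference between the libraries. In macrophage-like cells it had 4.91 CPM (4.49 to 5.37; 494 UMIs) in the anti-VEGF and 1.65 CPM (1.43 to 1.90; 194 UMIs) in the control library, a ratio of 2.98 (2.52 to 3.54). Of the 4 large classes, monocyte-like cells had the highest level in both, 12.7 CPM (10.4 to 15.3) and 13.1 CPM (10.2 to 16.5), and there the ratio was 0.972 (0.712 to 1.34). After thinning, 1.87% (1.45 to 2.36) of anti-VEGF and 0.676% (0.453 to 0.970) of control macrophage-like cells held a Flt1 UMI. Acp5-high cells served as a myeloid class nearly without Flt1. None of 790 thinned anti-VEGF cells held a UMI, which allows up to 0.380%, and 0.171% of control cells did. Their levels were 0.297 CPM and 0.383 CPM. In collagen-expressing cells without Ptprc, Flt1 had 1.54 CPM and 1.46 CPM, a ratio of 1.06 (0.620 to 1.84). The 10 endothelial markers summed to 4.77 CPM in anti-VEGF and 5.02 CPM in control macrophage-like cells, with Cldn5 at 0 in both and Tek at 0 in the anti-VEGF library, and their part in the Flt1 difference was not tested. Mixed cells held 17.5% (148 UMIs) and 31.2% (160 UMIs) of all Flt1 UMIs. Of these, 29 and 12 UMIs lay in the 2 anti-VEGF mixed cells with endothelial markers. The 3 such control cells held 66, 20 and 15. The counts do not separate the soluble from the membrane form of Flt1.

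Kdr (chr5:75932827-75978458, minus strand), the main signalling receptor of VEGF-A, was at 7.33 CPM (6.81 to 7.88) in anti-VEGF and 8.02 CPM (7.51 to 8.55) in control macrophage-like cells. The ratio of 0.914 had an interval of 0.829 to 1.01, which includes 1. Macrophage-like cells held 72.8% and 75.0% of all Kdr UMIs. Monocyte-like cells had 7.83 CPM (6.06 to 9.97) and 6.82 CPM (4.77 to 9.44), not separable from macrophage-like cells. Acp5-high cells had 0.927 CPM and 1.05 CPM, and collagen-expressing cells without Ptprc held 1 UMI in each library. After thinning, 3.49% (2.92 to 4.13) of anti-VEGF and 3.66% (3.12 to 4.27) of control macrophage-like cells held a Kdr UMI, against none of 567 and 363 collagen-expressing cells, which allows up to 0.529% and 0.826%. The thinned shares of Acp5-high cells were 0.253% and 0.256%. The profile of free RNA was not measured.

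Kdr had its highest level among macrophage-like cells in those with an interferon profile. Cells with at least 2 UMIs of each of the interferon-induced genes Ifit1, Rsad2 and Isg15 numbered 122 in the anti-VEGF and 118 in the control library. They had 27.5 CPM of Kdr (22.8 to 33.0; 117 UMIs) and 41.1 CPM (35.0 to 47.9; 163 UMIs), a ratio of 0.670 (0.523 to 0.854). Cells with none of the 3 genes had 5.78 CPM (5.23 to 6.38) and 5.84 CPM (5.33 to 6.37), a ratio of 0.991 (0.867 to 1.13). Cells with 1 of the 3 genes had 8.18 CPM and 8.66 CPM, and cells with 2 had 7.80 CPM and 17.1 CPM, from 29 and 68 UMIs. In both libraries the 3-gene cells were therefore the highest in Kdr, but they were 3.20% and 2.40% of the class and held 15.9% and 17.3% of its Kdr UMIs, while cells with none of the 3 genes held 54.4% and 52.1%. The same cells held 34 and 20 Flt1 UMIs, and had 56.2 CPM and 74.6 CPM of Nrp1. This look at the interferon markers was chosen after values of these data were seen.

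**Figure D3:**
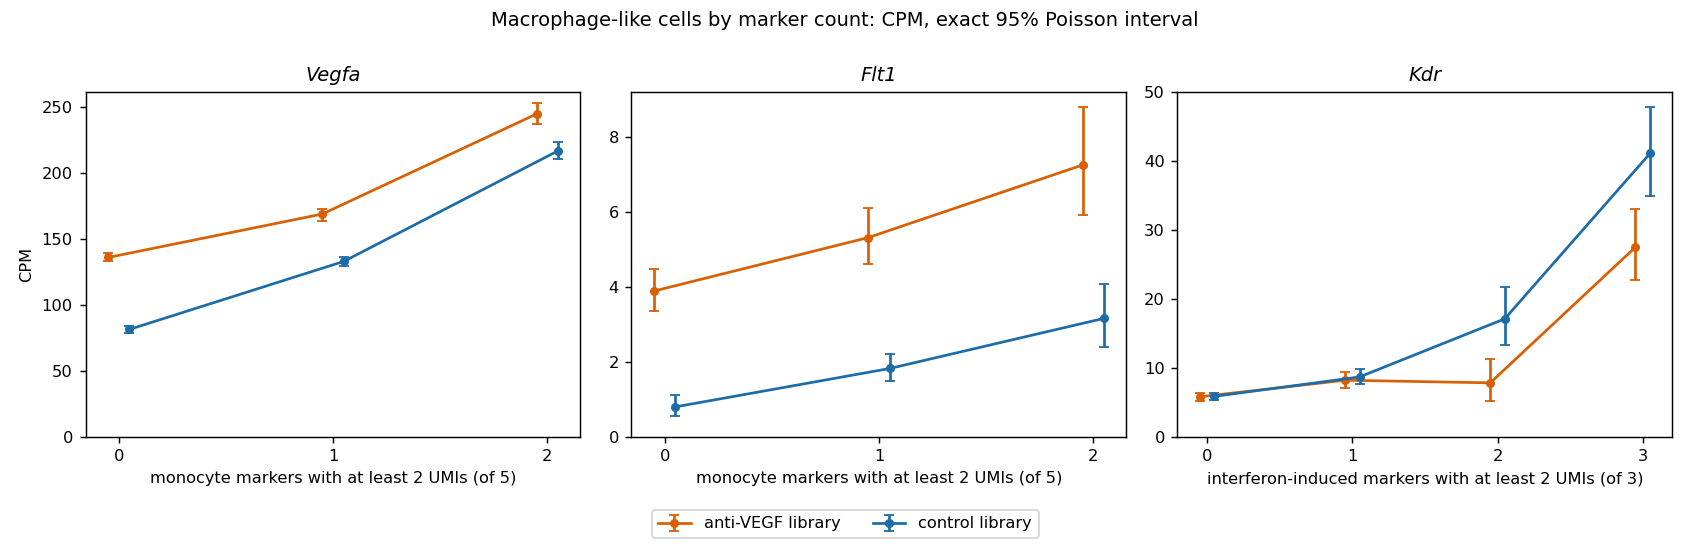
Levels in macrophage-like cells in CPM by the number of monocyte markers (Vegfa and Flt1) or interferon-induced markers (Kdr) with at least 2 UMIs, for the anti-VEGF library (orange) and the control library (blue). Bars are exact 95% Poisson intervals. Vegfa and Flt1 are higher with each further monocyte marker in both libraries, and Kdr is highest in cells with all 3 interferon-induced markers.

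The macrophage-like and monocyte-like classes grade into each other, since the monocyte gate asks for 3 of the 5 markers Ly6c2, Ccr2, Plac8, Vcan and Hp. A cell that met the macrophage gate as well was called monocyte-like. The summed monocyte markers came to 197 CPM in anti-VEGF and 256 CPM in control macrophage-like cells. Within macrophage-like cells, Vegfa was at 136, 169 and 245 CPM in anti-VEGF cells with 0, 1 and 2 of these markers, against 81.4, 133 and 217 CPM in control cells. The ratios were 1.67 (1.61 to 1.74), 1.27 (1.23 to 1.31) and 1.13 (1.08 to 1.18), closest to 1 in the cells nearest the monocyte gate. Flt1 was at 3.89, 5.32 and 7.26 CPM against 0.794, 1.82 and 3.16 CPM, with ratios of 4.90 (3.40 to 7.24), 2.92 (2.28 to 3.74) and 2.30 (1.65 to 3.22). Both genes were thus higher toward the monocyte end in each library. The 843 anti-VEGF and 1340 control macrophage-like cells with the most MHC class II UMIs (H2-Aa, H2-Ab1 and Cd74, genes of antigen presentation) had 238 CPM and 189 CPM of Vegfa. They had 10.1 CPM and 3.92 CPM of Flt1, a ratio of 2.59 (2.07 to 3.26).

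Nrp1 (chr8:128358604-128503363, plus strand), the co-receptor that binds VEGF-A and Sema3a, was lower in the anti-VEGF library in macrophage-like cells. It had 50.4 CPM (49.0 to 51.8) in the anti-VEGF and 65.6 CPM (64.1 to 67.1) in the control library, a ratio of 0.768 (0.741 to 0.796). Collagen-expressing cells without Ptprc had 34.2 CPM (32.0 to 36.6) and 45.4 CPM (42.2 to 48.7), a ratio of 0.754 (0.683 to 0.833). Monocyte-like cells had 64.2 CPM (58.9 to 69.9) and 54.5 CPM (48.4 to 61.2), a ratio of 1.18 (1.02 to 1.36) that became 0.912 (0.668 to 1.26) with 1 marker more in every gate. Acp5-high cells were low in both libraries, with 3.71 CPM (3.02 to 4.51) and 4.01 CPM (3.41 to 4.69). Macrophage-like cells with Selenop and Stab1 had 88.8 CPM and 103 CPM, and those with Lyz1 and Ch25h had 80.3 CPM and 108 CPM. Cells with Lpl and Dusp9 had 16.5 CPM and 22.1 CPM. After thinning, 17.2% (16.0 to 18.4) of anti-VEGF and 23.0% (21.7 to 24.3) of control macrophage-like cells held a Nrp1 UMI, against 1.52% and 1.36% of Acp5-high cells.

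Nrp2 (chr1:62703285-62818695, plus strand), the co-receptor of VEGF-C and Sema3f, had the most UMIs of the 8 genes, 50446 in the anti-VEGF and 67473 in the control library. Acp5-high cells had the highest level, 522 CPM (513 to 530.3) and 586 CPM (579 to 594), a ratio of 0.889 (0.871 to 0.908). A Nrp2 UMI was found in 86.8% (84.3 to 89.1) and 89.4% (87.5 to 91.1) of thinned Acp5-high cells. Macrophage-like cells had 212 CPM (209 to 215) and 227 CPM (225 to 230.0). Their ratio of 0.934 (0.917 to 0.951) was 1.01 (0.991 to 1.03) with TMM scaling and 1.06 (1.04 to 1.08) in cells rich in C1q, so the direction in this class depends on the setting. Monocyte-like cells had 155 CPM (146 to 163) and 115 CPM (106 to 125), a ratio of 1.34 (1.22 to 1.48). Collagen-expressing cells without Ptprc had 108 CPM (104 to 112) and 99.4 CPM (94.6 to 104). Mature dendritic cell-like cells, though few, had 236 CPM (178 to 307) and 205 CPM (165 to 251), which overlapped macrophage-like cells in both libraries. T cell-like cells had 16.2 CPM (7.41 to 30.8) and 41.4 CPM (26.2 to 62.1). Acp5-high cells thus combined the highest Nrp2 with a low Nrp1 in each library.

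**Figure D4:**
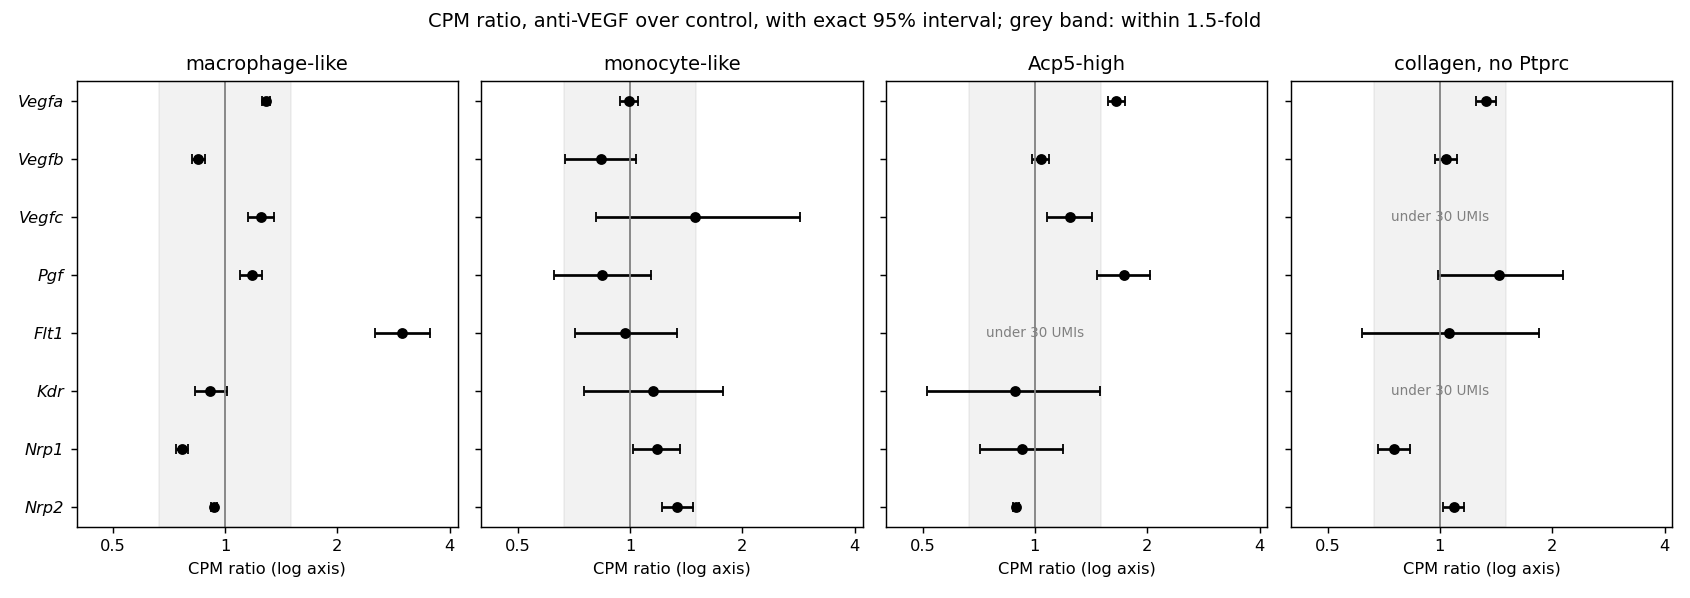
CPM ratio of the anti-VEGF over the control library for each gene in 4 cell classes (log axis), with exact 95% intervals for counting error. The grey band spans ratios within 1.5-fold. Flt1 in macrophage-like cells, at 2.98, lies farthest from 1, and genes under 30 UMIs in both libraries together are not drawn.

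Taking the 8 genes together in macrophage-like cells, 4 had a ratio above 1 (Vegfa, Vegfc, Pgf and Flt1) and 4 had a ratio below 1, against a background of 31.5% above 1 among all 13494 features with at least 30 UMIs. One of the 8, Flt1, reached 1.5-fold, against 5.13% of all features. Their median log2 ratio was 0.06, on a scale with 1 CPM added to each level, against -0.09 for all features. In monocyte-like cells 4 of 8 were above 1, against 45.3%, and none reached 1.5-fold, against 7.42%. In Acp5-high cells 4 of 7 were above 1, against 38.2%, and Vegfa and Pgf reached 1.5-fold, against 3.27%, while Flt1 fell under the minimum. In collagen-expressing cells without Ptprc 5 of 6 were above 1, against 36.4%, and none reached 1.5-fold, against 4.50%, while Vegfc and Kdr fell under the minimum. No ratio of a VEGF gene with enough UMIs was at or under 1/1.5, which 6.86%, 5.74%, 3.44% and 5.21% of all features were in the 4 classes in the order given.

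Macrophage-like cells were then divided by a hypoxia score, the UMIs per 10000 of Ndrg1, Bnip3, Slc2a1, Ankrd37, Egln3, Adm and Ero1l, genes known to be induced by low oxygen. The score leaves out Vegfa. Its 4 bins, with edges at 1.59, 4.81 and 12.2, hold equal numbers of cells over both libraries together. From the lowest to the highest bin they held 9.91%, 18.2%, 27.8% and 44.1% of anti-VEGF and 36.7%, 30.2%, 22.9% and 10.2% of control macrophage-like cells. Cells within 10% of an edge made up 13.1% and 13.7%. The score and the library thus move together, and the pooled ratios above mix cells of different scores.

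Vegfa was higher in each higher bin of both libraries. It was at 49.1, 99.3, 181 and 207 CPM in anti-VEGF cells and at 46.1, 113, 199.9 and 273 CPM in control cells. Within bins the ratio was 1.06 (0.961 to 1.18), 0.877 (0.830 to 0.926), 0.905 (0.871 to 0.940) and 0.759 (0.728 to 0.791). The pooled ratio of 1.29 therefore did not hold within bins, and with equal weight for the 4 bins the levels were 134 and 158 CPM, a ratio of 0.849. The bins did not match the scores fully, since the median score was higher in anti-VEGF cells in each bin. From the lowest to the highest bin it was 0.828, 2.97, 7.93 and 23.7 in anti-VEGF and 0.638, 2.76, 7.25 and 18.6 in control cells. Among cells of the top bin without a monocyte marker the ratio was 0.927 (0.863 to 0.997), and in the second bin it was 1.26 (1.14 to 1.39) without and 0.820 (0.757 to 0.888) with 1 monocyte marker. The ratio within a bin thus varied with the monocyte markers, and the part of the score or of these markers in the pooled ratio was not tested.

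Flt1 was also higher with each bin, at 1.14, 2.01, 5.11 and 6.91 CPM in anti-VEGF and 0.585, 1.65, 2.35 and 3.61 CPM in control cells. Its ratio stayed above 1 in the bins, at 1.94 (0.856 to 4.15), 1.21 (0.790 to 1.84), 2.18 (1.62 to 2.95) and 1.92 (1.37 to 2.74), and the intervals of the lower 2 bins include 1. With equal weight for the bins the ratio was 1.85, smaller than the pooled 2.98. Flt1 UMIs in the lowest bin numbered 11 and 23, so the level there is loosely set.

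Vegfc ran the other way. It was at 32.9, 16.2, 9.25 and 8.31 CPM from the lowest to the highest bin in anti-VEGF cells and at 19.8, 6.70, 3.82 and 2.25 CPM in control cells. Within bins the ratio was 1.66 (1.45 to 1.89), 2.41 (2.04 to 2.86), 2.42 (1.93 to 3.06) and 3.69 (2.46 to 5.78), each above the pooled 1.25. With equal weight for the bins it was 2.04. The pooled Vegfc ratio was thus smaller than the ratio in any bin, and the low bins, where Vegfc was highest, held a smaller share of the anti-VEGF cells.

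Nrp2 was likewise lower with each bin, at 339, 267, 194 and 171 CPM in anti-VEGF and 325, 196, 167 and 143 CPM in control cells. Its ratio within bins was 1.04 (1.00 to 1.08), 1.36 (1.31 to 1.41), 1.16 (1.12 to 1.21) and 1.20 (1.14 to 1.27), against the pooled 0.934. With equal weight for the bins the ratio was 1.17, opposite in direction to the pooled one.

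The other 4 genes had no such common trend. Vegfb was level across the bins, between 35.8 and 38.0 CPM in anti-VEGF and between 42.7 and 44.7 CPM in control cells, with ratios from 0.801 to 0.882. Nrp1 was below its control level in each bin, with ratios of 0.821 (0.731 to 0.918), 0.615 (0.570 to 0.664), 0.747 (0.701 to 0.796) and 0.730 (0.671 to 0.794). Kdr stayed between 5.94 and 8.40 CPM in anti-VEGF and between 7.43 and 9.29 CPM in control cells. Pgf had ratios of 0.768 (0.631 to 0.930), 0.724 (0.597 to 0.874) and 0.965 (0.827 to 1.13) in the lower 3 bins and 2.06 (1.70 to 2.50) in the top bin. There it had 22.4 CPM (963 UMIs) in anti-VEGF and 10.9 CPM (121 UMIs) in control cells. The Pgf ratio in the top bin was 1.91 (1.46 to 2.53), 2.01 (1.47 to 2.78) and 2.59 (1.46 to 5.01) with 0, 1 and 2 monocyte markers. In the lower 3 bins its direction varied with these markers. From the lowest bin up it was 3.35 (1.96 to 5.69), 1.63 (0.989 to 2.65) and 2.07 (1.56 to 2.76) with 2 markers. With 0 markers it was 0.334 (0.210 to 0.509), 0.744 (0.519 to 1.05) and 0.710 (0.501 to 1.01). With 1 marker it was 0.927, 0.636 and 0.808.

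**Figure D5:**
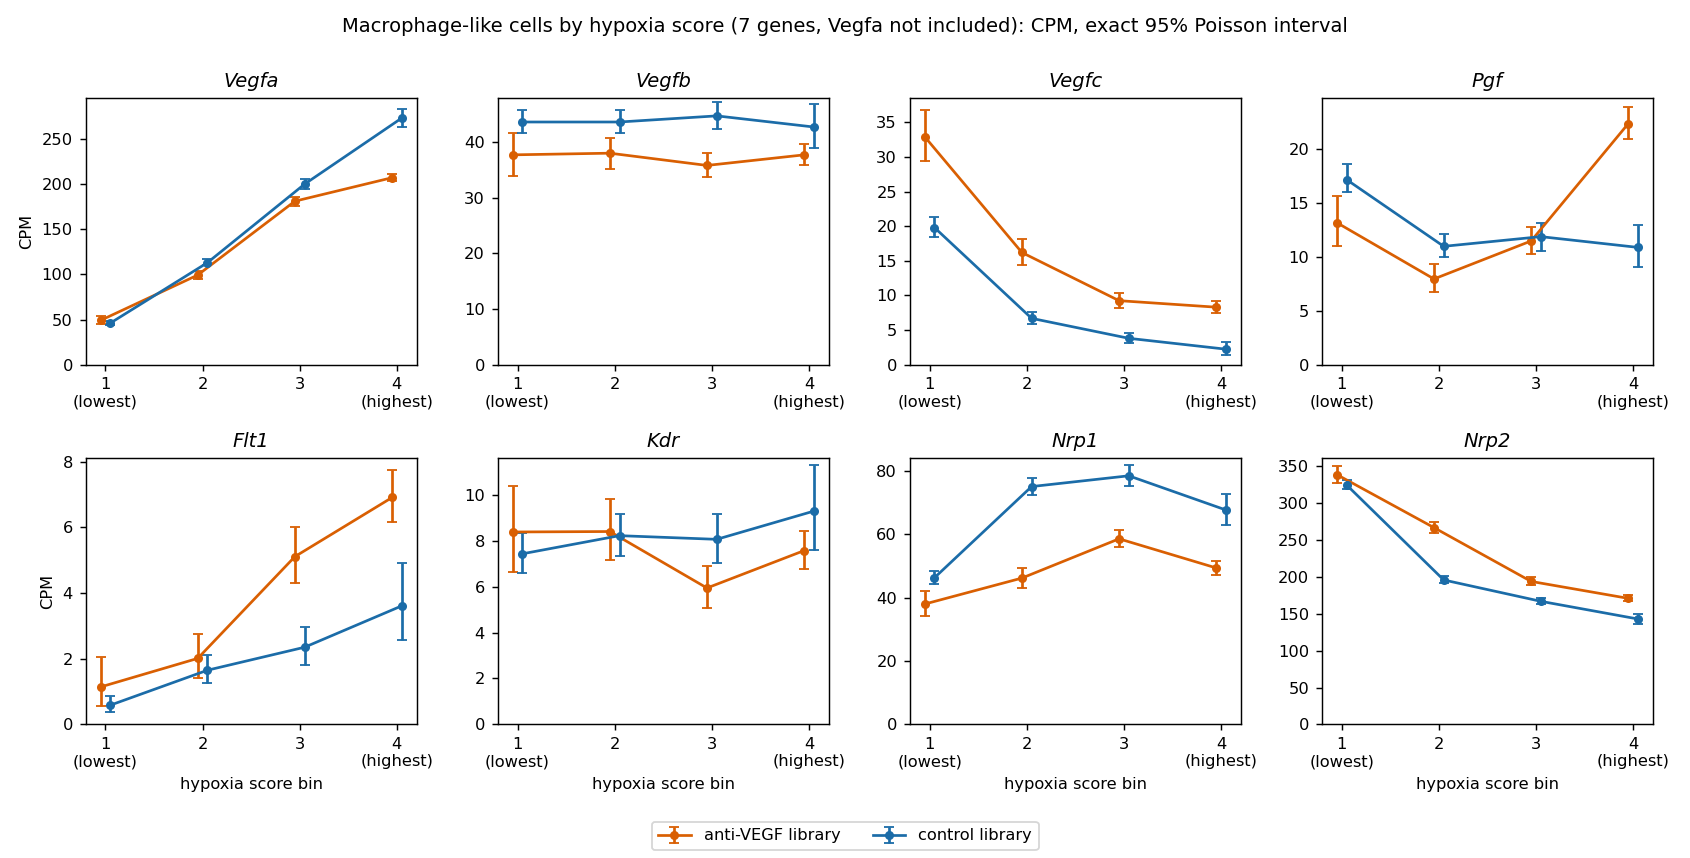
Level in macrophage-like cells in CPM (linear axis from 0) by hypoxia score bin, lowest to highest, for the anti-VEGF library (orange) and the control library (blue), with exact 95% Poisson intervals. Vegfa and Flt1 are higher and Vegfc and Nrp2 lower with each bin in both libraries, and Nrp1 lies below the control line in each bin.

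Genes that work with the VEGF family were described from 6 lists, by counts in macrophage-like cells, where all features had a median log2 ratio of -0.09. Of all features there, 31.5% had a ratio above 1, 5.13% a ratio of at least 1.5 and 6.86% one at or under 1/1.5, and each list is given beside these shares. Of the semaphorins and plexins, 8 of 14 had enough UMIs, 5 with a ratio above 1 and 3 below, with a median log2 ratio of 0.05. Plxnb2, a semaphorin receptor, was at 144 and 141 CPM, and Plxna1, which pairs with neuropilins, at 17.1 and 11.7 CPM, a ratio of 1.46 (1.36 to 1.57). Sema3c, the only member with enough UMIs past 1.5-fold and named for that after its value was seen, had 54 and 18 UMIs, while Sema3a and Sema3f, the classical neuropilin ligands and also named after their values were seen, had 11 and 11 and 6 and 16 UMIs. Of the angiopoietin and Tie genes, Angpt2, a vessel-destabilising ligand, was at 18.5 and 13.5 CPM, a ratio of 1.37 (1.28 to 1.47). Tie1 had 18 and 41 UMIs, a ratio of 0.514. These were the 2 of 5 genes of the list with at least 30 UMIs.

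Among 20 genes of VEGF receptor signalling, 9 had a ratio above 1 (31.5% of all features) and 11 below, with a median log2 ratio of -0.07, and 1 reached 1.5-fold up (5.13%) and 2 down (6.86%). The phosphatase gene Ptpn6 was at 165 and 185 CPM and the kinase gene Mapk3 at 126 and 102 CPM. Those past 1.5-fold in either direction are named here after their values were seen. Ptk2, which encodes focal adhesion kinase, had a ratio of 1.56 (1.43 to 1.70), the protein kinase C gene Prkcb had 0.658 (0.621 to 0.696), and Sh2d2a had 0.397 (0.226 to 0.668) from 20 and 59 UMIs. Of 10 measured genes of VEGF availability and antagonists, 7 were above 1 (31.5% of all features) and 3 below, with a median of 0.19, and 2 reached 1.5-fold up (5.13%) and 1 down (6.86%). Sdc4, a heparan sulphate proteoglycan gene, was at 346 and 312 CPM, and the heparanase gene Hpse at 59.1 and 46.7 CPM. Adamts1 at 4.58 (3.30 to 6.47), Thbs2 at 2.65 (1.98 to 3.59) and Vash2 at 0.652 (0.465 to 0.908) were the list's genes past 1.5-fold, named after their values were seen. Of the 10 genes that control Vegfa, 5 were above 1 (31.5% of all features) and 5 below, with a median of 0.04, and 3 reached 1.5-fold up (5.13%). Hif1a, the oxygen-regulated factor subunit, was at 116 and 117 CPM (ratio 0.991, 0.966 to 1.02), and Zfp36, which promotes decay of AU-rich transcripts, was at 562 and 631 CPM. These 3, named after their values were seen, were Egln1 at 1.74, Epas1 at 1.52 and Egln3 at 4.05, and Egln3 is part of the hypoxia score.

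The lists were also counted in the other classes. In monocyte-like cells, 45.3% of all features were above 1, and their log2 ratios had a median of -0.03. Above 1 there were 4 of 5 measured semaphorin and plexin genes, 10 of 19 signalling genes, 6 of 7 availability genes and 6 of 10 genes that control Vegfa, with medians of 0.31, 0.10, 0.51 and 0.06. In Acp5-high cells, where 38.2% of all features were above 1 with a median of -0.04, the counts of the same lists were 4 of 8, 11 of 20, 6 of 9 and 3 of 10, with medians of -0.02, 0.02, 0.18 and -0.05. In collagen-expressing cells without Ptprc, where 36.4% of all features were above 1 with a median of -0.08, they were 3 of 9, 6 of 17, 5 of 11 and 4 of 9, with medians of -0.06, -0.13, -0.02 and -0.02. Angpt2 was the 1 angiopoietin or Tie gene measured in these classes, and it was above 1 in each.

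The genes with the most similar class pattern were found by Pearson correlation of log2 CPM over 9 points, which are 5 classes in the libraries where they had at least 100 cells. These points share libraries, so the correlations are descriptions. The fifth class is the 209 neutrophil-like cells of the anti-VEGF library, which held no Kdr and no Pgf UMI. The values are the highest among many genes over few points, so values near 1 follow from this selection. Vegfa was most like Mxi1 (0.959), Chil3 (0.949) and Vhl (0.947), and Flt1 was most like Vhl (0.969), Ppp1r15b (0.961) and Tcf7l2 (0.956). Vegfb was most like Mblac2, Amacr and Tax1bp3 (0.993 to 0.996), Vegfc most like Lyzl4, Zfp579 and Fxyd2 (0.978 to 0.982), and Pgf most like Sdf4, Rnpepl1 and Myo7a (0.983 to 0.986). Kdr was most like Pnp, Trpv4 and Necap2 (0.992 to 0.993), Nrp1 most like Armcx3, Plscr3 and Ube2e3 (0.991 to 0.996), and Nrp2 most like Kyat1, Rai14 and Cd109 (0.991 to 0.992).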

How the data were processed

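Per the deposited matrices, the values are UMI counts (whole numbers, without normalisation) for each feature and barcode. Cell Ranger 3.0.2 and build mm10 are named in the submitters' processing notes, and the matrix headers give software version 3.1.0. The authors deposited barcodes with 500 UMIs or more. The genes and lists were chosen with earlier results of these data known.

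Cells were kept with at least 300 genes, 500 UMIs and at most 10% mitochondrial UMIs (92.5% of barcodes in each library). A marker was present from 2 UMIs. Macrophage-like cells needed 5 of 9 markers, and Acp5-high cells 4 of 6 and 20 Acp5 and Ctsk UMIs per 10000. Monocyte-like cells needed 3 of 5 and other gates 3. Macrophage-like and monocyte-like cells met none of the other gates. A cell that met both the macrophage and the monocyte gate was called monocyte-like. Cells that met several lineage gates, or a lineage gate with 10 C1q UMIs per 10000, were mixed. The thresholds were set after the data were seen, and no doublet caller was run. Of the features, 71 share a symbol, and none of these is a VEGF gene.

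Counts were summed per class and library with Python 3.11.15 and scipy 1.17.1. Levels have exact Poisson, ratios exact conditional binomial and shares exact (Clopper-Pearson) binomial 95% intervals. The floor for a count of 0 is 3 counts. Log2 ratios used a pseudocount of 1 CPM and features with at least 30 UMIs in a class. Comparisons used the 4 classes with at least 100 cells in each library. Because the design has 1 library per group, no p-value was computed. TMM factors came from edgeR 4.0.16. The ratio step was run on simulated Poisson counts with known folds. These counts have no variation between cells or libraries, so the run cannot tell how the intervals fare with such variation. The named genes are the 8 VEGF genes, up to 4 genes of each list with the most UMIs, and the 3 most similar genes of each VEGF gene, leaving out predicted, mitochondrial and ribosomal genes. Genes named after their values were seen are marked so. Alternatives were other cell filters, scaling, weights of cells, thinning, gates, pseudocount and minimum, and removal of cells with the most UMIs or with barcodes in both libraries.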

Additional observations from a re-analysis of the deposited data

Results flagged for a closer look

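For both neuropilins the difference between the libraries ran in opposite directions in different cell classes, which was not tested. The Nrp1 ratio of anti-VEGF over control was 1.18 in monocyte-like cells, against 0.768 in macrophage-like cells and 0.754 in collagen-expressing cells without Ptprc. The Nrp2 ratio was 1.34 in monocyte-like cells and 1.09 in collagen-expressing cells without Ptprc, against 0.934 in macrophage-like cells and 0.889 in Acp5-high cells. Several of these directions depend on the setting. With 1 marker more in every gate the Nrp1 ratio in monocyte-like cells was 0.912 (0.668 to 1.26), and the Nrp2 ratio in collagen-expressing cells was 1.01 (0.946 to 1.08). The Nrp2 ratio in macrophage-like cells was 1.01 with TMM scaling, 1.06 in C1q-rich cells and 1.17 with equal weight for the hypoxia bins. After thinning, the Nrp2 ratio in monocyte-like cells was 1.13 (0.869 to 1.48).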

How the results depend on the processing

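No paired analysis was possible because each group is 1 library and the labels give no replicate numbers. For the same reason no ratio here carries biological error. The median log2 ratio of the VEGF genes in macrophage-like cells was 0.06 and became 0.23 in cells with at least 10 C1q UMIs per 10000, a gate chosen after the data were seen, as were the alternatives for the top hypoxia bin and for shared barcodes. The count of 4 genes above 1 became 5 there and with TMM scaling. TMM scaling shifted log2 ratios by 0.11 in macrophage-like, 0.03 in monocyte-like, 0.05 in Acp5-high and 0.09 in collagen-expressing cells.

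The Vegfa ratio in macrophage-like cells, 1.29, was 1.40 with TMM scaling, 1.32 as a mean over cells, 1.36 after thinning and 1.18 without the top bin of the hypoxia score. In collagen-expressing cells without Ptprc it was 1.33, and 1.42, 1.48 and 1.66 under the first 3 of these. In the top hypoxia bin it was 0.759, and 0.801 with the stricter cell filter, 0.820 with TMM scaling and 0.803 in C1q-rich cells. Of 242 other values for 27 ratios, 198 stayed within the counting interval of the main value, 33 moved outside it on the same side of 1, 7 moved across 1 from a main value whose interval includes 1, and 4 reversed a main value whose interval lies on 1 side of 1. The 7 were Vegfa in monocyte-like cells (main 0.992; 1.10 as a mean over cells, 1.11 after thinning, 1.13 with 1 marker more in every gate), Flt1 there (main 0.972; 1.40 with 1 marker more, 1.34 with markers present from 3 UMIs), Vegfb there (main 0.834; 1.71 with 1 marker more) and Nrp1 in Acp5-high cells (main 0.924; 1.41 after thinning). The 4 were Nrp2 in macrophage-like cells (1.01 with TMM scaling, 1.06 in C1q-rich cells), Nrp1 in monocyte-like cells (0.912) and Pgf in Acp5-high cells (0.811), the last 2 with 1 marker more in every gate. The cause was not tested. Depth limits the rarer genes: after thinning, 1.87% of anti-VEGF and 0.676% of control macrophage-like cells held a Flt1 UMI.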
